A study of Mus musculus with 6 samples.

Results

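The 6 arrays of this series fell on 2 sides by Top2a, the gene of DNA topoisomerase II alpha, an enzyme that dividing cells make to untangle their chromosomes. The Top2a probe set with the highest mean was taken, and arrays above a log2 value of 9 formed the high side and arrays under it the low side. All 6 of 6 arrays were placed: Rarb-null replicates 1 and 2 and wild type replicate 2 were high, and Rarb-null replicate 3 and wild type replicates 1 and 3 were low. In the sentences that follow, 3 values of the high side always stand in the order Rarb-null 1, Rarb-null 2, wild type 2, and 3 values of the low side in the order Rarb-null 3, wild type 1, wild type 3. The sides were chosen by measured Top2a signal of these arrays, so every difference between the sides is a description and carries no test. A difference is the mean of the high arrays minus the mean of the low arrays on the log2 scale, where 1 unit is a 2-fold difference in signal.

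The study profiled total RNA of cleared mammary fat pads (named as stroma) by biotin-labelled cRNA on expression arrays. There were 3 arrays from mice lacking Rarb (Rarb -/-), the gene of a retinoic acid receptor, and 3 from wild-type littermates, all at 4 weeks of age. One description shared by every sample mentions ErbB2 and young mice without saying whether any of them carried a transgene; it separates no groups. The sources used here do not give how many mice stood behind each array or how the deletion was made, so any p-value measures the spread between these arrays only.

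A cell that prepares to divide makes the enzymes of DNA replication, then the kinases, cyclins, motors and kinetochore proteins of mitosis, and most of these messages come and go together with the cycle. Many of their promoters are held silent in resting cells by protein complexes that read the cell cycle genes homology region (CHR) or the sites of E2F factors. The CCAAT box is a further promoter motif counted below. In the mammary gland of a pubertal mouse, division is known to be frequent in the growing ducts and in the stroma around them, while the fat pad itself is a bed of adipocytes that store lipid and, in part, burn it for heat.

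Top2a separated the arrays without an intermediate value. Its brightest probe set read 10.35, 10.28 and 10.40 on the high arrays and 5.98, 7.13 and 6.83 on the low arrays, a difference of 3.69 log2 or 12.9-fold. The lowest high array stood at 10.28 and the highest low array at 7.13, so no array lay near the dividing value of 9. A second Top2a probe set read 8.01, 7.90 and 7.85 on the high arrays and 7.15, 6.74 and 6.91 on the low arrays, also without overlap. The third read 4.95, 5.09 and 5.25 on the high arrays and 5.28, 4.70 and 5.07 on the low arrays, and there the sides overlapped. Within each genotype, 1 array stood with the other genotype's majority: wild type 2 was as high as the high Rarb-null arrays, and Rarb-null 3 was the lowest of all.

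**Figure D1:**
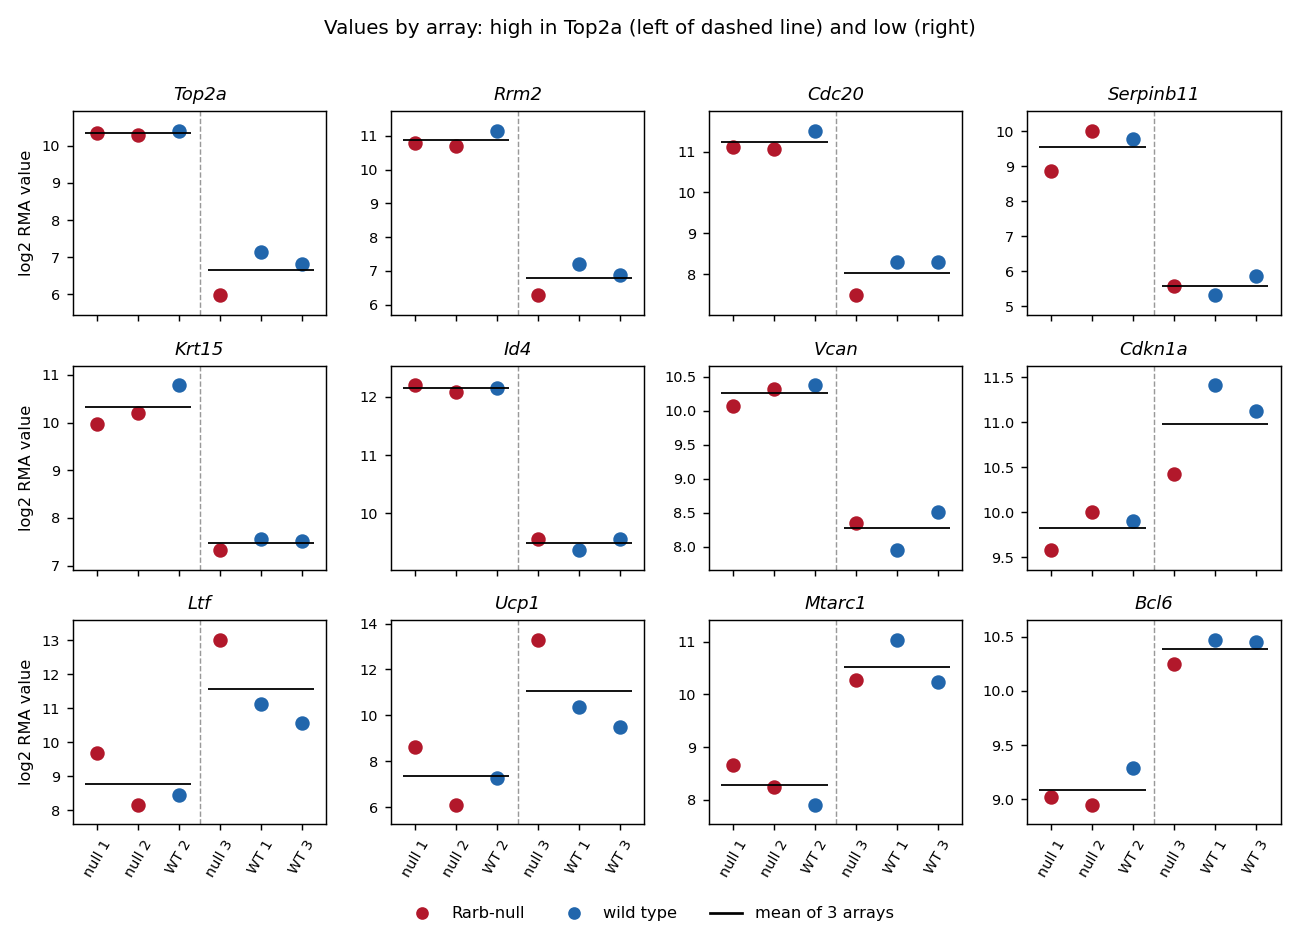
Log2 RMA value of 12 genes (vertical axis, own range per panel) on each array (horizontal axis), high arrays left of the dashed line and low arrays right of it; red points are Rarb-null, blue points wild type, and lines are means of 3 arrays. Top2a, Rrm2 and Krt15 are higher on all 3 high arrays, Ltf, Ucp1 and Mtarc1 are lower on all of them, and both colours occur on each side.

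Genes that moved with Top2a can be read beside their promoters. The sequences that follow are 150 bases upstream of the start of 5 mitosis genes of wide separation whose RefSeq promoter (assembly GRCm38.p6) holds a CCAAT box and a CHR within that stretch, shown because these letters are more frequent in the mitosis and DNA replication lists than over all promoters. They run 5′ to 3′ on the strand of the gene. Capitals mark each CCAAT (or ATTGG, its reverse complement) and each CHR (TTTGAA or TTCGAA, or their reverse complements). Top2a lies at chr11:99024190-99024339 on the minus strand, Ect2 at chr3:27153879-27154028 (minus), Cdc20 at chr4:118437344-118437493 (minus), Kif11 at chr19:37376232-37376381 (plus) and Cdk1 at chr10:69352913-69353062 (minus).
Top2a: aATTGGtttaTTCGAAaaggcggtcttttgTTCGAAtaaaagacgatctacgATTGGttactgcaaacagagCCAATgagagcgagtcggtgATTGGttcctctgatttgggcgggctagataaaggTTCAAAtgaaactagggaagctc
Ect2: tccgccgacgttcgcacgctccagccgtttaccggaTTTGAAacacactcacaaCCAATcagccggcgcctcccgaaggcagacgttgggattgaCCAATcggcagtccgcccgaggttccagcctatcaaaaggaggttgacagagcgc
Cdc20: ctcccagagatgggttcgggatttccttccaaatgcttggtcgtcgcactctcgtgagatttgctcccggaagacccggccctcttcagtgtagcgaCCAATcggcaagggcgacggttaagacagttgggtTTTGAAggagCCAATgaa
Kif11: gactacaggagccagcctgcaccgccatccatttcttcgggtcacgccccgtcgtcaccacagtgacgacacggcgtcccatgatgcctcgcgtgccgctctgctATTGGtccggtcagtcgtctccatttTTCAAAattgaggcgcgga
Cdk1: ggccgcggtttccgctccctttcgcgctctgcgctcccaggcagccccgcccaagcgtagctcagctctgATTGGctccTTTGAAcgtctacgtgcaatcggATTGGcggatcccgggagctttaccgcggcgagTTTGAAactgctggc
The Top2a stretch held 4 CCAAT and 3 CHR matches, and that of Kif11 held 1 of each. Over the 250 bases before the start, on both strands, CCAAT occurred in 68% of 50 mitosis promoters with an entry, in 65.5% of 29 DNA replication promoters and in 34.5% of all 27025 promoters of the table. A CHR occurred in 34%, 24.1% and 17.4% of the same sets, and both motifs together in 28%, 20.7% and 6.21%. E2F letters (TTTCGCGC, TTTGGCGC, TTTCCCGC or TTTGCCGC) stood in 8% of mitosis promoters, 27.6% of replication promoters and 1.91% of all. The DNA repair and checkpoint list differed, with CCAAT in 52.6% of 19 promoters, E2F letters in 21.1%, a CHR in 10.5% and both CCAAT and CHR in none. By the rule given in the next paragraph, 549 genes with a promoter entry were set apart upward on the high arrays and 263 downward, out of 13916 measured genes with an entry. CCAAT stood in 43.9% of the upward, 39.9% of the downward and 35.9% of the measured promoters, and a CHR in 15.3%, 12.9% and 13.2%. Both motifs together stood in 10.7%, 3.04% and 5.06%, and the E2F letters in 7.83%, 1.52% and 2.82%. For the CHR, the 15.3% of the upward promoters stood above the 13.2% of the measured genes they belong to. It stood under the 17.4% of the whole table, which also holds genes without a measurement. Matches of different motifs can share letters at their ends, and a match describes the sequence without showing that a factor binds there.

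A gene is called set apart here when its 3 high and 3 low arrays did not overlap and the means differed at least 1.5-fold, using its brightest probe set that names 1 gene. Of all 20519 genes, 814 were set apart upward on the high arrays (3.97%) and 359 downward (1.75%), 5.72% in either direction. Outside the cell cycle lists, 198 of the upward and 82 of the downward genes differed at least 2-fold. Clone and model names were left out of both of these counts. Over all 45037 probe sets, 1631 (3.62%) were set apart upward and 615 (1.37%) downward. With no limit on size, 11.8% of the 20519 genes were higher and 13.7% lower on the high arrays without overlap. Because the split was drawn from the same arrays, nothing is read from these shares, and counts of list members stand beside them as a scale only. The median difference over all genes was -0.051 log2, and 40.1% of genes had the greater mean on the high arrays, so more genes had the smaller mean there although more of those set apart were upward. The side accounted for 45.6% of the spread between arrays summed over probe sets, and genotype for 19%. Any split of 6 arrays takes up some share, and neither of these was tested. Deviations from the probe set means correlated at 0.34 to 0.47 among high arrays and at -0.04 to 0.13 among low arrays, over probe sets that share arrays, so the high arrays resembled each other more closely than the low ones did.

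Of 171 measured genes in 5 cell cycle lists, 127 were set apart upward, 1 downward and 43 neither way. Mitosis genes moved furthest, with 56 of 61 set apart upward and a median difference of 2.07 log2. DNA replication followed with 32 of 38 and a median of 1.39, DNA repair and checkpoint genes with 17 of 27 and 0.89, chromatin proteins of dividing cells with 13 of 24 and 0.64, and regulators of cycle entry with 9 of 21 and 0.57. Beyond the brightest, 193 of 243 further probe sets of these genes had a difference of the same sign.

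Rrm2, a subunit of the ribonucleotide reductase that makes DNA precursors, had the widest separation. It read 10.77, 10.69 and 11.15 on the high arrays and 6.28, 7.21 and 6.88 on the low arrays, a 16.9-fold difference. Pbk, a mitotic kinase, read 11.21, 11.29 and 11.10 on the high arrays and 7.16, 7.76 and 7.36 on the low arrays. For the kinase gene Melk the values were 10.12, 9.88 and 10.06 on the high arrays and 5.86, 6.66 and 6.41 on the low arrays. These folds of 13.7 for Pbk and 13.1 for Melk exceeded the spread inside either side, which stayed within about 1 log2 unit. Bub1, a kinase of the spindle checkpoint, read 8.14, 8.35 and 8.19 on the high arrays and 4.93, 4.99 and 4.86 on the low arrays, 9.82-fold apart. Cenpf of the kinetochore was 12.6-fold, Ect2, which directs the cleavage furrow, 9.34-fold, and Cdc20, the activator of the anaphase ubiquitin ligase, 9.19-fold higher on the high arrays. Among replication genes, Uhrf1, which carries DNA methylation over to the new strand, was 8.95-fold higher and Mcm6 of the replicative helicase 8.38-fold higher. Brca1, a repair gene, was 9.93-fold higher.

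Some cell cycle genes did not follow. Cdkn1a, which encodes the inhibitor p21 and halts cyclin-dependent kinases, ran the other way, at 9.58, 10 and 9.90 on the high arrays and 10.42, 11.41 and 11.12 on the low arrays, 2.23-fold lower on the high side. Rb1, the pocket protein that restrains E2F, differed by -0.44 log2 and Ccnd2, a D-type cyclin, by -0.28, with overlap in both. Smaller negative differences of -0.08 to -0.01, all with overlap, belonged to Cdkn2c, Xrcc2, Ccnd3, Kif15, Hmga2 and Foxm1. Foxm1, the mitotic transcription factor, read 7.69, 7.73 and 7.57 on the high arrays and 7.78, 7.64 and 7.61 on the low arrays, and 1 of its 3 further probe sets shared the sign. Kif15, a spindle motor, has a single probe set, so its small difference could not be set against another.

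**Figure D2:**
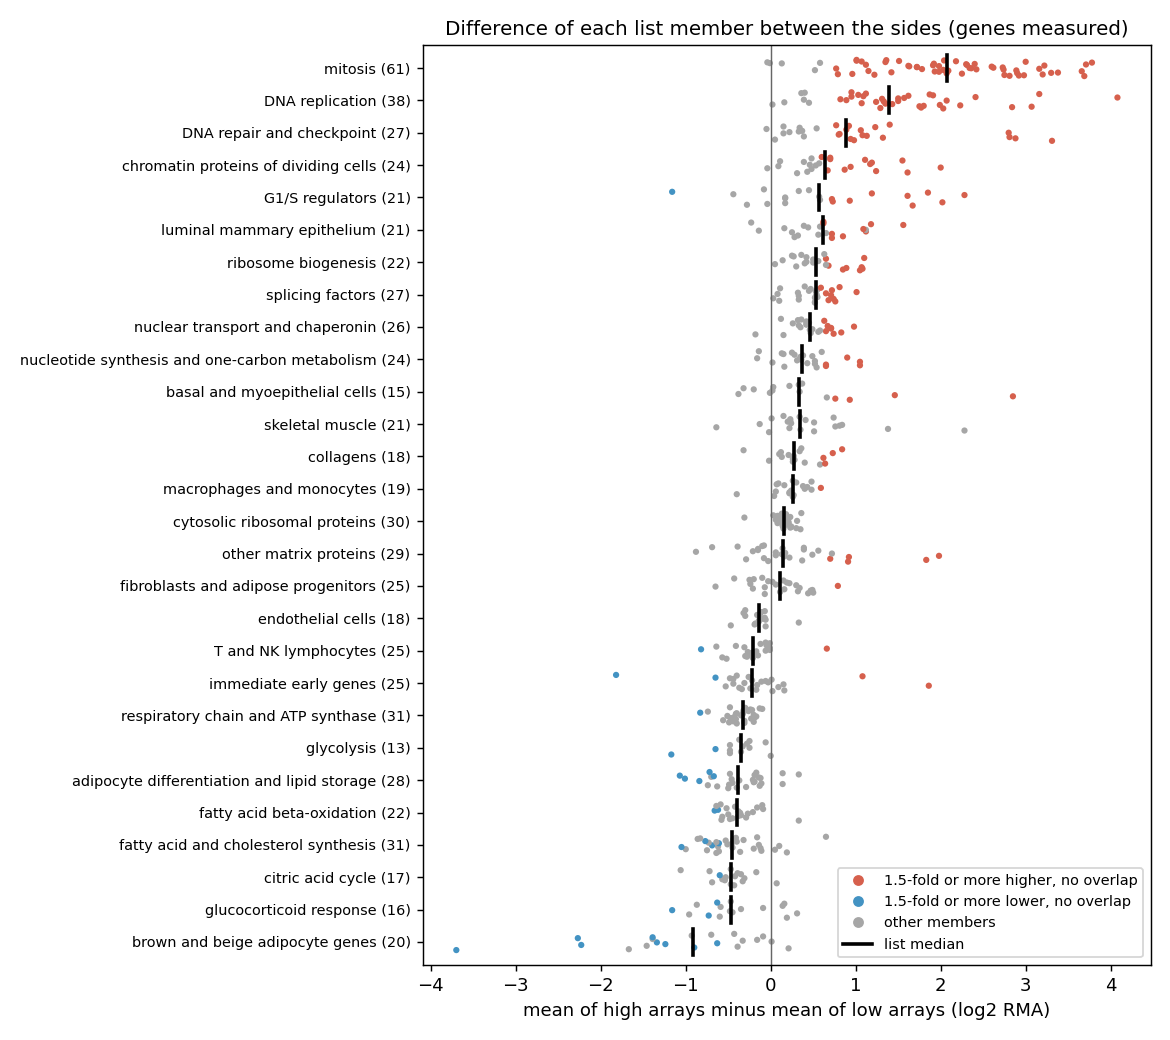
Difference between the means of the high and the low arrays in log2 units (horizontal axis) for every measured member of 28 gene lists (rows, with the number of genes); red and blue points are members at least 1.5-fold higher or lower without overlap, grey points the others, and black bars list medians. Mitosis has the greatest median, 2.07, and the brown and beige adipocyte genes the lowest, -0.92.

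Outside the cell cycle lists, the 14 genes with the widest upward separation were led by further division genes. They include Shcbp1 (11-fold), Cdca5 or sororin, which protects sister cohesion (11.7-fold), the cohesin acetyltransferase gene Esco2 (8.97-fold), Pclaf, a partner of the sliding clamp (10.1-fold), and Dscc1 of an alternative clamp loader (6.99-fold). Fignl1 of recombination (7.27-fold), Cep55 of abscission (9.16-fold), the kinetochore gene Zwilch (6.47-fold) and Dtl, which marks replication factors for destruction (6.07-fold), also belong to them. Shcbp1 and Fignl1 each have 1 further probe set, which did not share the sign. Another 4 of the 14 are known for other functions. Serpinb11, a serine protease inhibitor family member, read 8.87, 10.01 and 9.76 on the high arrays and 5.58, 5.31 and 5.85 on the low arrays, 15.6-fold apart. Id4, an inhibitor of helix-loop-helix factors found in basal mammary epithelium, read 12.20, 12.09 and 12.15 on the high arrays and 9.56, 9.37 and 9.56 on the low arrays. For Serpinb11 the high arrays varied by more than 1 log2 unit, while the Id4 arrays of each side lay close together around a 6.29-fold difference. Krt15, a keratin of basal epithelial cells, read 9.97, 10.20 and 10.78 on the high arrays and 7.33, 7.55 and 7.52 on the low arrays, a 7.21-fold difference. Bex1 read 11.33, 10.87 and 11.28 on the high arrays and 7.86, 8.56 and 7.88 on the low arrays, 8.35-fold apart.

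Further down the same ranking, and named after their values were seen, were genes of epithelial junctions and patterning. Olfm4, a secreted glycoprotein, read 7.33, 8.20 and 8.29 on the high arrays and 5.0, 4.67 and 5.19 on the low arrays. The gap junction genes Gjb2 and Gjb6 were 5.21-fold and 4.96-fold higher, the Iroquois homeobox genes Irx5 and Irx3 were 3.11-fold and 2.85-fold higher, and Dsc2 of the desmosome was 2.93-fold higher on the high arrays. Pappa, a protease that frees insulin-like growth factors from their binding proteins, was 3.49-fold higher. Only 1 of the 3 further Pappa probe sets had that sign.

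Most epithelial markers had the greater mean on the high arrays. Of 21 luminal markers 9 were set apart upward and 0 downward, with a median of 0.62 log2, and of 15 basal and myoepithelial markers 4 upward and 0 downward, with a median of 0.33. The mean was smaller on the high arrays for 2 of the luminal markers, down to -0.23 log2. The same held for 4 of the basal ones, down to -0.38. Without wild type 3 the basal median was 0.20 and the luminal median 0.44, with 1 luminal marker then set apart downward. Ehf, an epithelial transcription factor, read 11.01, 11.03 and 11.15 on the high arrays and 9.81, 10.33 and 8.38 on the low arrays, 2.94-fold apart. Foxa1, a pioneer factor of hormone-sensing luminal cells, was 2.26-fold higher and the tight junction gene Cldn7 2.18-fold higher. In the basal list, Krt15 was joined by Trp63, the master factor of basal cells, at 11.17, 10.94 and 11.28 on the high arrays and 10.09, 9.98 and 8.93 on the low arrays, although only 1 of its 3 further probe sets had that sign. Krt5 was 1.90-fold higher. The summed level is visible in the list means: the luminal mean deviated by 0.20 to 0.44 log2 on the high arrays and by -0.64 to -0.05 on the low arrays, and the basal mean by 0.18 to 0.34 and by -0.34 to -0.15, without overlap. The part of epithelial content in the other differences was not tested. In bulk tissue, fewer cells of a type and less RNA per cell cannot be told apart.

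The tissue is labelled as cleared, a term for a fat pad without its epithelium, yet epithelial signal was bright on both sides. Epcam, a surface protein of epithelial cells, read 13.46, 13.46 and 13.61 on the high arrays and 13.30, 12.85 and 12.71 on the low arrays, where array medians lay between 6.78 and 6.85. Csn2, the gene of beta-casein, a milk protein, read 14.53, 14.12 and 14.34 on the high arrays and 14.65, 13.90 and 7.63 on the low arrays. Milk protein genes as a group did not follow the sides: 0 of 11 were set apart upward and 1 downward, with the list mean at 1.34 log2 on Rarb-null 3 and -1.83 on wild type 3, both low arrays. The single one was Ltf, lactoferrin, an iron-binding protein of milk and of neutrophil granules, at 9.69, 8.16 and 8.45 on the high arrays and 13.00, 11.13 and 10.57 on the low arrays, 6.96-fold lower on the high side.

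Hormone and growth signals known in ductal growth gave a few members each. In the oestrogen and progesterone list 3 of 17 were set apart upward and 0 downward: Calca, the calcitonin gene, at 8.48, 7.42 and 8.80 on the high arrays and 5.98, 7.28 and 6.03 on the low arrays, Cited1, a transcriptional co-activator (2.18-fold), and Prlr, the prolactin receptor (1.54-fold). In the list of insulin-like growth factor signalling and its neighbours, 3 of 18 were set apart upward: Igfbp2, a binding protein of these factors (2.37-fold), and Socs2 and Cish, feedback inhibitors that growth hormone and prolactin induce (1.63-fold and 1.58-fold). Imprinted growth genes gave 1 of 19 upward, the amino acid transporter gene Slc38a4 (1.54-fold), while Plagl1 differed by -0.57 log2 and Gnas by -0.13 without overlap.

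Retinoid genes divided. Of 20 measured, 2 were set apart upward and 3 downward, with a median of -0.01 log2. Crabp2, which carries retinoic acid to its receptors, read 9.91, 9.81 and 10.18 on the high arrays and 8.79, 9.23 and 7.22 on the low arrays, 2.94-fold apart. It was thus higher on every high array, while the plasma carrier gene Rbp4 was 1.64-fold lower and the receptor gene Rxrg 1.55-fold lower. Rarb itself read 6.50, 6.61 and 6.01 on the high arrays and 7.41, 6.95 and 6.65 on the low arrays, 1.54-fold lower on the high side with a gap of 0.04 log2 between the closest arrays. The sources used here do not place its single probe set inside or outside the deleted stretch, so it checks no label.

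Genes of the growth machinery leaned the same way with smaller sizes. Ribosome biogenesis had 8 of 22 set apart upward and a median of 0.53 log2, splicing factors 9 of 27 and 0.53, nuclear transport and the chaperonin 8 of 26 and 0.46, and nucleotide synthesis 5 of 24 and 0.37. None of these 4 lists had a member set apart downward. Without wild type 1 the number of splicing factors set apart upward was 15. Gar1, of the particle that modifies ribosomal RNA, read 11.03, 10.79 and 11.04 on the high arrays and 8.99, 10.24 and 10.33 on the low arrays. Fbl, the methylase of ribosomal RNA, was 2.11-fold and Nop58, its partner, 2.10-fold higher on the high arrays. Snrpd1 of the spliceosome core was 2.01-fold, Lsm2 1.75-fold and the splicing factor gene Srsf3 1.70-fold higher. Nup155 of the nuclear pore (1.97-fold), Rcc1 (1.77-fold) and Ranbp1 (1.67-fold), both of the Ran cycle, and Mthfd2 of mitochondrial folate metabolism (2.07-fold), Ppat (2.07-fold) and Impdh2 (1.86-fold) of purine synthesis complete the leading members. Cytosolic ribosomal proteins gave 0 of 30 set apart either way, a median of 0.16 log2 and a largest difference of 0.36 in Rpsa, with Rpl4 at 0.35 and Rplp0 at 0.31. Most of them were bright, but the brightest usable probe set of Rps6 read only 4.78 to 5.26 over the 6 arrays and that of Rpl30 7.62 to 8.39.

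Some matrix genes were among the upward ones. Vcan, the gene of versican, a large proteoglycan, read 10.07, 10.32 and 10.37 on the high arrays and 8.35, 7.95 and 8.51 on the low arrays, 3.96-fold apart. Fbn2, a fibrillin of developing tissue, read 6.97, 6.69 and 7.79 on the high arrays and 5.46, 5.35 and 5.15 on the low arrays. Postn, periostin, was 1.89-fold higher, and 5 of 29 matrix genes in all were set apart upward and 0 downward, with a median of 0.14 log2. Another 11 of the 29 had the smaller mean on the high arrays. Without Rarb-null 3 the count was 8 upward and 1 downward, and without wild type 1 the median was 0.0 log2, without wild type 2 it was 0.06 and without wild type 3 it was 0.25. Collagens gave 4 of 18 upward and 0 downward with a median of 0.27, led by Col16a1 (1.79-fold), Col11a1 (1.66-fold) and Col1a2, a chain of type I collagen (1.56-fold). Col1a2 read 14.40, 14.45 and 14.33 on the high arrays and 13.85, 13.36 and 14.06 on the low arrays, with no overlap. Without wild type 1 only 2 collagens were set apart upward, and without wild type 3 the median was 0.42 log2.

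Of 25 matrix proteases and inhibitors, 4 were set apart upward and 1 downward. Adamts4, which cuts proteoglycans such as versican, was 2.38-fold higher and Timp1, an inhibitor of matrix metalloproteases, 2.27-fold higher on the high arrays. Among cross-linking and collagen processing genes 1 of 19 was set apart, Plod2, a collagen lysyl hydroxylase (1.82-fold higher), followed by Fkbp10 at 0.54 log2 and P4ha1 at 0.52. In the basement membrane list 1 of 13 was set apart, Lamb3, a laminin chain of epithelial basement membranes (1.69-fold higher), with Agrn at 0.52 log2 and Lama2 at 0.51. Fibroblast and adipose progenitor markers stayed near their 6-array means, with 1 of 25 set apart upward, Ebf1 (1.73-fold, although 3 of 7 further probe sets had that sign), and Prrx1 at 0.34 log2 and Ly6a at 0.32.

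Fat genes ran the other way, and over all 6 arrays those of heat-producing fat ran furthest. Of 20 brown and beige adipocyte genes, 8 were set apart downward and 0 upward, with a median of -0.92 log2. Ucp1, the uncoupling protein that turns the proton gradient into heat, read 8.64, 6.11 and 7.29 on the high arrays and 13.28, 10.37 and 9.49 on the low arrays, a 13.0-fold lower mean on the high side. Otop1 read 8.21, 7.23 and 6.82 on the high arrays and 10.82, 9.78 and 8.48 on the low arrays. Cox7a1, a respiratory subunit of muscle and brown fat, read 7.32, 5.62 and 6.34 on the high arrays and 10.02, 8.09 and 7.86 on the low arrays. The list mean was -0.78 to -0.15 log2 on the high arrays, against 1.41 on Rarb-null 3 and 0.05 to 0.12 on the other low arrays, and Rarb-null 3 was the highest array for each of the 3 genes. Without Rarb-null 3, 7 of the 20 were set apart downward and the median was -0.41 log2. In that setting the median was -0.47 for adipocyte differentiation and lipid storage and -0.46 for fatty acid and cholesterol synthesis. The first rank of the brown and beige list thus rests on Rarb-null 3.

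General adipocyte and metabolic lists had smaller negative medians over all 6 arrays. Adipocyte differentiation and lipid storage gave 5 of 28 set apart downward, 0 upward and a median of -0.38 log2. Without Rarb-null 3 the number set apart downward was 11, and without Rarb-null 2 it was 8. Gpd1, which makes the glycerol backbone of fat, read 12.38, 12.11 and 11.59 on the high arrays and 13.50, 13.21 and 12.58 on the low arrays. Agpat2 of triglyceride synthesis was 2.02-fold and Lipe, hormone-sensitive lipase, 1.79-fold lower. Fatty acid and cholesterol synthesis had 4 of 31 downward and a median of -0.46, with Pnpla3 (2.07-fold lower), Dhcr7 (1.71-fold) and Hmgcs1 (1.61-fold) in the lead. Without Rarb-null 1 the number was 15, and without wild type 3 it was 14. All 31 respiratory chain and ATP synthase genes had the smaller mean on the high arrays, with a median of -0.33 log2, but only Uqcrq was set apart (1.78-fold lower), and Ndufb8 and Sdhb differed by -0.56 and -0.51. The number set apart was 6 without Rarb-null 1, 8 without wild type 3, 3 without wild type 1 and 2 without Rarb-null 3 or wild type 2. For the citric acid cycle 1 of 17 was set apart, Suclg1 (1.51-fold lower), with Idh3g at -0.54 and Cs, citrate synthase, at -0.43. That number was 0 without Rarb-null 2, Rarb-null 3 or wild type 2, 4 without Rarb-null 1, 2 without wild type 1 and 8 without wild type 3. The median of -0.47 log2 was -0.31 without Rarb-null 3. Fatty acid beta-oxidation had 2 of 22 downward, Ech1 (1.58-fold) and Eci1 (1.53-fold), followed by Cpt2 at -0.58 log2. Here it was 0 without Rarb-null 3 or wild type 2, 8 without Rarb-null 1, 5 without wild type 1 and 6 without wild type 3, and the median of -0.40 log2 was -0.26 without Rarb-null 3. The counts of these metabolic lists therefore rest on single arrays, whereas the list medians kept their sign in each of these settings. Glycolysis had 2 of 13 downward, Hk2, a hexokinase of insulin-sensitive tissue (2.25-fold), and Aldoa (1.57-fold), with Gpi1 at -0.48 log2.

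The 14 genes with the widest downward separation were led by Mtarc1, a mitochondrial reductase gene, at 8.66, 8.25 and 7.91 on the high arrays and 10.28, 11.03 and 10.23 on the low arrays, 4.73-fold lower on the high side. Pm20d1, a secreted enzyme that forms N-acyl amino acids and is known from brown fat, was 2.57-fold lower. Bcl6, a transcriptional repressor, read 9.02, 8.95 and 9.29 on the high arrays and 10.25, 10.47 and 10.45 on the low arrays, 2.46-fold lower with little spread inside either side. Ucp1 and Ltf belong to the same 14. The cation transporter gene Slc22a2 was 2.36-fold and the proteoglycan gene Ncan 3.38-fold lower. Rhof (2.74-fold), Lrrc39 (3.12-fold), Golga7b (2.50-fold) and Tlcd3b (2.61-fold) belong to them together with Serpina1b, a plasma protease inhibitor gene of the liver, which read 7.86, 7.52 and 8.03 on the high arrays and 8.85, 10.48 and 10.51 on the low arrays.

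Lower in that ranking, and named after their values were seen, stood other genes known for plasma proteins of the liver. Alb, albumin, was 2.36-fold, Fgb, a fibrinogen chain, 2.71-fold, Kng1, kininogen, 2.51-fold and Orm1, an acute-phase protein gene, 2.25-fold lower on the high arrays. Lipid genes were there too: Plin5, a lipid droplet protein of oxidative tissues, read 9.08, 8.52 and 8.88 on the high arrays and 10.97, 9.81 and 10.91 on the low arrays. Nrg4, a growth factor released by brown fat, was 2.28-fold and Lpin1, a phosphatase of triglyceride synthesis, 2.49-fold lower.

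Fast-response and stress genes moved in both directions. Of 25 immediate early genes 2 were set apart upward and 2 downward, with a median of -0.22 log2. Egr2 read 11.01, 11.40 and 11.31 on the high arrays and 8.62, 8.84 and 10.67 on the low arrays, and Myc, the growth transcription factor, was 2.11-fold higher. Ccn2, connective tissue growth factor, read 8.81, 8.18 and 8.72 on the high arrays and 10.96, 11.12 and 9.10 on the low arrays, 3.53-fold lower. Glucocorticoid response genes had 3 of 16 downward and 0 upward, with a median of -0.47: Cdkn1a, Per1, a clock gene that glucocorticoids induce (1.65-fold lower), and Hsd11b1, which regenerates active glucocorticoid (1.55-fold lower). In the clock list Per1 was the only one of 18 set apart, with Rora at -0.38 log2 and Bhlhe41 at -0.31. Of 15 heat shock genes 3 were set apart upward and 1 downward, among them Fkbp4 (1.91-fold) and Hspa1b (1.58-fold) higher and Hspb8 (1.67-fold) lower on the high arrays. Interferon response genes gave 1 of 20, Irf7, the interferon regulator (2.23-fold higher), with Ifit2 at 0.56 log2, and positional Hox genes gave 0 of 19, with Shox2, Hoxa10 and Hoxd9 at -0.49, -0.44 and -0.32.

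Few markers of blood and immune cells were set apart, but 4 of these list means were lower on every high array than on any low array. The T and NK lymphocyte mean was -0.13 to -0.08 log2 on the high arrays and 0.04 to 0.19 on the low arrays, and the B cell mean -0.18 to -0.05 on the high arrays and 0.10 to 0.14 on the low arrays. Neutrophil markers, a list that holds Ltf, averaged -0.31 to -0.16 on the high arrays and 0.06 to 0.52 on the low arrays, and antigen presentation genes -0.23 to 0.0 on the high arrays and 0.06 to 0.16 on the low arrays. The part of immune cell content in the other differences was not tested. T and NK lymphocyte markers had the smaller mean on the high arrays in 24 of 25, with a median of -0.21 log2, and Il7r, the interleukin receptor of naive T cells, was set apart downward (1.77-fold) and Tcf7 upward (1.58-fold), with Cd3g at -0.57 log2. B cell markers gave 0 of 16 set apart, with Cd22 at -0.39 and Pax5 at -0.29. Macrophage markers leaned upward in 18 of 19 with a median of 0.26, C1qa of complement being set apart (1.51-fold) and the Fc receptor genes Fcgr1 and Fcgr3 at 0.48 and 0.40. Antigen presentation genes gave 0 of 12, with H2-Eb1 at -0.47. Neutrophil markers gave 1 of 10 upward, Prtn3 (1.77-fold), and 2 downward, Ltf and S100a8 (1.57-fold). Erythroid markers gave 0 of 14, with the transferrin receptor gene Tfrc at 0.57 and Hba-a1 at -0.48, and mast cell markers 0 of 11, with Gata2 at -0.42, Mrgprb1 at -0.26 and Fcer1a at -0.19. In lymph node stroma 0 of 8 were set apart, with Ccl19 at -0.37.

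Vessel, muscle and nerve markers also gave few. Endothelial markers had 0 of 18 set apart, with Cdh5 at -0.47 log2 and Robo4 at -0.32, and lymphatic markers 1 of 8, Reln (2.36-fold higher, its 1 further probe set having the opposite sign), with Foxc2 at -0.23. In the smooth muscle list 1 of 16 was set apart, Actg2 (1.64-fold higher), with Lmod1 at -0.49 and Notch3 at 0.19. Skeletal muscle genes had no member of 21 set apart and scattered widely inside both sides: the list mean was 1.87 log2 on wild type 2, a high array, and 0.78 on Rarb-null 3, a low array, against -0.92 to -0.39 on the other 4. Myh1, a fast myosin, read 5.07, 7.81 and 10.02 on the high arrays and 6.33, 4.75 and 4.98 on the low arrays, and Myh4 differed by 1.38 log2, both with overlap. Muscle progenitor genes gave 0 of 12, with Myod1 at -0.28. In the Schwann cell list Egr2, shared with the immediate early list, was upward and S100b, also abundant in adipocytes, downward (2.35-fold), with Mag at -0.28. Epidermal (0 of 15) and salivary (0 of 7) genes were not set apart, with Krt31 at -0.17, Dsc1 at -0.08, Aqp5 at -0.54 and Pip at -0.25, and of 7 mesothelial genes Krt19, shared with the luminal list, was upward (1.80-fold).

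**Figure D3:**
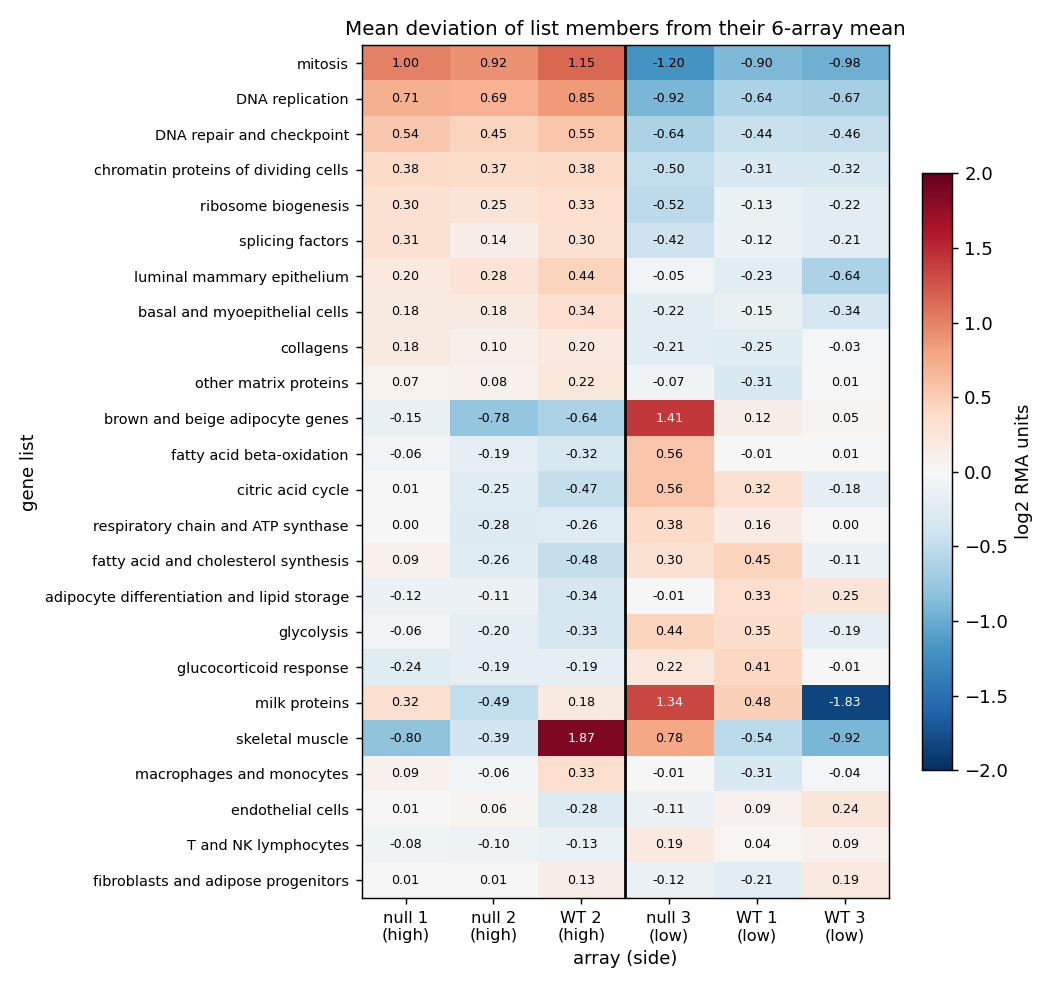
Mean deviation of list members from their own 6-array mean in log2 units (colour and printed value) for 24 gene lists (rows) on each array (columns), high arrays left of the vertical line and low arrays right of it. The cell cycle rows change sign at the line, while milk proteins and skeletal muscle reach both signs on the same side.

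Of 48 lists beyond the cell cycle, 14 had a higher rounded list mean on every high array than on any low array. The mean was lower in 8 and overlapping or tied in 26. For single genes, the shares without overlap were 11.8% higher and 13.7% lower. A list mean averages many genes, so these shares are a scale only. The lower ones were the adipocyte, brown and beige, beta-oxidation and glucocorticoid response lists and the 4 immune lists named above. The respiratory chain list was tied by rounding: its highest high array, Rarb-null 1, stood at -0.0 and its lowest low array, wild type 3, at 0.0. Its unrounded means were not compared. Citric acid cycle and fatty acid synthesis genes belong to the overlapping ones. In these, Rarb-null 1 on the high side or wild type 3 on the low side lay near the other side. Mitosis, by contrast, ran from 0.92 to 1.15 log2 on the high arrays and from -1.20 to -0.90 on the low arrays.

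The arrays of a side also had an order among themselves. Over the 171 cell cycle genes, wild type 2 was the highest high array in 95 and Rarb-null 2 the lowest in 91. On the low side Rarb-null 3 was the lowest array in 100 and wild type 1 the highest in 88. For mitosis, wild type 2 led the high side in 42 of 61 genes and Rarb-null 3 closed the low side in 37 of 61. The array most often at the top was thus a wild-type one on each side, the low side holding 2 wild-type arrays and the high side 1. For beta-oxidation the order was turned: Rarb-null 1 was the highest high array and Rarb-null 3 the highest low array, each in 17 of 22 genes.

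Genotype is the comparison that the labels give, and it can be read with and without the side. At an adjusted p of 0.05 limma called 0 of 45037 probe sets between Rarb-null and wild type, the smallest adjusted p being 0.908, while 2351 (5.22%) had an unadjusted p under 0.05, 2.88% of all tested being lower in Rarb-null. With the side as a covariate, 0 passed, the smallest adjusted p was 0.601, and 3488 (7.74%) had an unadjusted p under 0.05, 1949 of them (4.33%) lower in Rarb-null. Since the side was drawn from cell cycle values of the same arrays, the second fit describes differences within sides and is not independent of those genes.

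The direction of the cell cycle lists depended on that choice. For genotype alone, 58 of 61 mitosis genes had the greater mean in Rarb-null, with a median difference, Rarb-null minus wild type, of 0.49 log2. With the side in the model 48 of 61 were lower in Rarb-null with a median of -0.21. DNA replication genes had medians of 0.29 for genotype alone and -0.20 with the side. The Rarb-null mean was the lower one within both sides in 38 of 61 mitosis genes, and in 29 every Rarb-null array lay under every wild-type array of its side. These within-side values of cell cycle genes are given without a test, because the side was drawn from the same signal. The share of all genes ordered in this way was not counted, so nothing is read from these counts.

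Top2a averaged 8.87 ± 2.50 in Rarb-null and 8.12 ± 1.98 in wild type (SD, n = 3 each). That is 0.75 log2 higher in Rarb-null, with an adjusted p of 0.973 in limma. With the side as a covariate the difference was -0.54, a description only, since that covariate is made from Top2a itself. Cdc20 showed the same turn, at 0.52 log2 for genotype alone and -0.62 with the side. Mcm4, a helicase subunit, differed by -0.79 with the side. Over all probe sets the median standard error was 0.14 log2 without the covariate and 0.131 with it.

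Metabolic genes stood higher in Rarb-null once the side was in the model. Fatty acid beta-oxidation genes were higher in 19 of 22 with a median of 0.42 log2, against 0.19 for genotype alone. With the side, 14 of the 22 had an unadjusted p under 0.05 in limma, where the share over all probe sets was 7.74%. For genotype alone 1 of the 22 did. The mean of this list also differed between the sides, so the fit with the side is not independent of these genes either. Citric acid cycle genes were higher in 16 of 17 (median 0.36) and respiratory chain genes in 27 of 31 (median 0.26). All 3 medians were larger among the low arrays, where Rarb-null 3 alone stands for Rarb-null. They were 0.45 there against 0.21 among the high arrays for beta-oxidation and 0.45 against 0.31 for the citric acid cycle. For the respiratory chain they were 0.32 against 0.13. Acadl, a long-chain acyl-CoA dehydrogenase, differed by 0.67 log2 (95% interval 0.32 to 1.02), with an adjusted p of 0.601 in limma. Brown and beige genes had a median of 0.58, made of 0.07 among the high arrays and 1.12 among the low arrays, where Rarb-null 3 is the single Rarb-null array. Rarb itself differed by 0.57 log2 with the side (0.28 to 0.87, adjusted p 0.601 in limma) and by 0.30 for genotype alone, Rarb-null being above wild type on both sides.

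**Figure D4:**
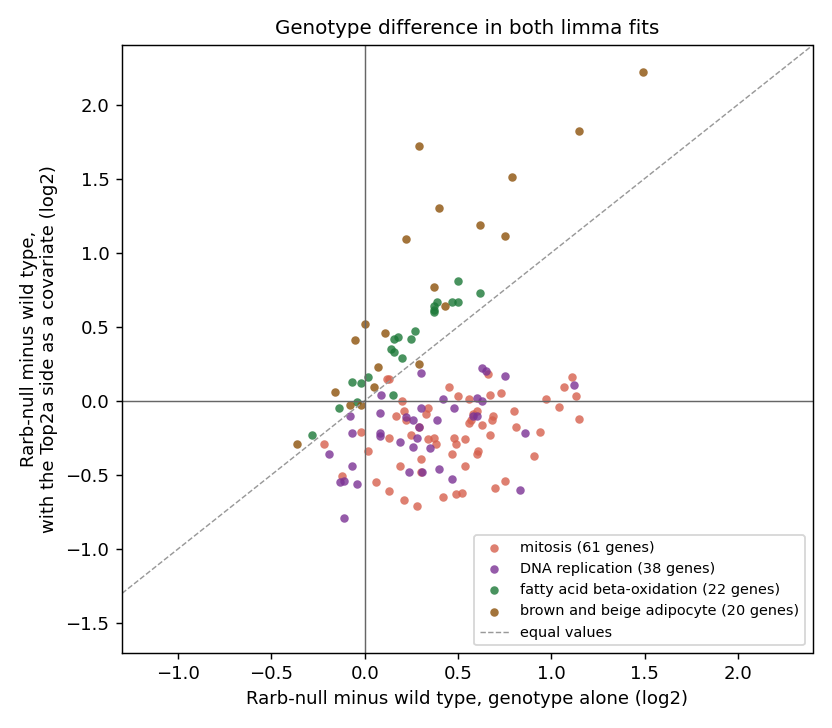
Difference Rarb-null minus wild type in log2 units for each gene of 4 lists, from the limma fit of genotype alone (horizontal axis) and from the fit with the Top2a side as a covariate (vertical axis); each point is 1 gene, and the dashed line marks equal values. Most mitosis and replication points lie right of 0 and under 0, while beta-oxidation and brown adipocyte points lie mostly above the line.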

How the data were processed

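RNA of 6 cleared mammary fat pad samples was measured on 1 array each. Per the submitters' processing notes the authors made log2 values with RMA (version unstated), and 45101 probe sets were deposited. RMA gives all arrays a common distribution, which hides a shift common to most transcripts, and it compresses differences of dim probe sets. The deposited values, from 3.25 to 15.3, carry no detection flags, and the number of arrays limits precision. A second deposited table gave symbols and the authors' log2 group means, which matched the value table within 7.7e-06.

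Without the 64 control probe sets, 45037 were kept. Of these, 40149 named 1 symbol, 1239 several and 3649 none. Through a RefSeq table (GRCm38.p6), 28011 symbols were current, 8406 were updated and 3732 kept as deposited. They name 20519 genes, each taken at its brightest probe set. The 53 lists hold 1088 genes, 1040 of them measured. Members and lists were chosen with earlier results of these data known, and several patterns had been seen before.

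Named genes were Top2a and Rarb, the 14 per direction with the widest gap between the sides among those at least 2-fold apart outside the cell cycle lists (clone names left out), the 10 cell cycle members with the widest gap and those running the other way, and per other list the 3 largest differences without overlap, or else the 2 largest. Results of 6 genes that this rule names are not reported here. Genotype was tested with limma 3.58.1 in R 4.3.3, with two-sided p-values adjusted over all probe sets after Benjamini and Hochberg, a procedure tested on simulated data first. Values were handled in Python 3.11.15 with pandas 2.3.3. Alternatives were further quantile normalization, median centring, removal of the lowest 40% by mean, a trended robust prior, the side or replicate number as a term, a 2-fold limit, means over probe sets, and leaving out each array. Deviations of arrays with the same replicate number correlated at -0.2, 0.45 and 0.29, so the numbers were not taken as pairs.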

Additional observations from a re-analysis of the deposited data

How the results depend on the processing

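Leaving out 1 array gave 1623 to 1931 probe sets at least 1.5-fold higher without overlap, against 1631, and 573 to 1109 lower, against 615. The lower count was 1109 without Rarb-null replicate 3 and 1103 without wild type replicate 3, and 529 and 535 of those belonged to the 615. With fewer arrays on a side, overlap is avoided more easily. A 2-fold limit left 525 higher and 128 lower. With means over all probe sets of a gene, 623 genes were higher and 266 lower. Of 530 list medians recomputed, 490 stayed within the spread between arrays and 40 moved beyond it. A change of sign was looked for only in lists whose median difference was at least 1.5-fold, and none of those reversed. For lists with smaller medians the sign was not compared. All 299 of 299 recomputed values of named genes stayed within the spread between arrays.

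For genotype in limma, the count past an adjusted p of 0.05 was 0 to 1 when 1 array was left out: the 1, with an adjusted p of 0.0339 in limma, came without Rarb-null replicate 2. The count at an unadjusted p under 0.05 ran from 1147 without Rarb-null replicate 2 and 1307 without wild type replicate 3 to 4418 without wild type replicate 2, and was 1566 without the lowest 40% by mean, where fewer probe sets were tested. With the replicate block it was 3418, with 0 past the adjusted threshold, and the sample numbers are no known pairs. The medians Rarb-null minus wild type reversed with the Top2a side as a covariate, to -0.21 for mitosis and -0.20 for DNA replication. They then compare arrays within a side, by the construction of the fit. With 3 arrays a side, of which 1 or 2 are Rarb-null, single arrays weigh heavily in every within-side value.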
